A study of Mus musculus with 4 samples.

Results

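The phagocyte NADPH oxidase is the enzyme that makes superoxide in macrophages and neutrophils, and the transcripts of 6 of its subunits were followed here in bone marrow-derived macrophages. The genes were chosen by symbol as membrane and cytosolic subunits of the enzyme, a rule that uses no measured value, though earlier results of these data were known when it was written, and all 6 of Cybb, Cyba, Ncf1, Ncf4, Rac1 and Rac2 were found among the 21878 genes of the count table. Macrophages came from C57BL/6 mice aged 8 weeks and were grown from marrow with M-CSF. They were then kept for 48 h in coculture with MC38, a mouse colon cancer line, which sat across a porous insert. A figure legend of the study gives a shorter coculture than the sample labels. Total RNA of 2 libraries from wild type mice (WT) and 2 from mice with a macrophage-specific knockdown of Act1 (anti-Act1) was sequenced. Both groups were cocultured, no library without tumour cells was analysed here, and the sources used here do not say whether a library pooled several animals. The table holds 64199075 and 75062945 counts for WT replicates 1 and 2, and 61926229 and 55435063 for anti-Act1 replicates 1 and 2, and pairs of values below keep this order.

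The oxidase is silent until its parts meet. Cybb encodes gp91phox (NOX2), the membrane chain that passes electrons from NADPH to oxygen, and Cyba encodes p22phox, the partner that keeps it stable. On stimulation cytosolic subunits, p47phox (Ncf1) and p40phox (Ncf4) among them, move to this pair together with an activated Rac GTPase, Rac2 in neutrophils and Rac1 or Rac2 in macrophages. These libraries measured transcripts, not the assembled enzyme or superoxide.

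The labels were checked first. Act1 is encoded by Traf3ip2, which stood at 6.98 and 7.54 CPM (counts scaled to the library size that the TMM method gives) with the WT label and at 9.63 and 7.84 CPM with the anti-Act1 label. The difference, anti-Act1 over WT, was 0.27 on the log2 scale (SE 0.12; edgeR adjusted p = 0.117) and passed the threshold of 0.05 without anti-Act1 replicate 2, at 0.41 (edgeR adjusted p = 0.0343), while without anti-Act1 replicate 1 it was 0.11 (edgeR adjusted p = 0.723). The transcript was thus not lower where the knockdown is labelled. These counts do not measure the Act1 protein, and every direction given here rests on the labels. The Y-linked genes Ddx3y, Uty and Kdm5d had no count under the anti-Act1 label, where Eif2s3y had 1 count in replicate 1, and the 4 genes summed to 228 and 246 CPM with the WT label. Y-linked genes are expressed in male cells, so the libraries labelled WT read as male and those labelled anti-Act1 as female. How this came about was not tested, and sex cannot be told apart from the label in any comparison given here. In bulk RNA, fewer cells of a type and less RNA per cell cannot be told apart either.

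Macrophage identity was plain in all 4 libraries. The 12 macrophage markers summed to 34417 and 33094 CPM with the WT label and to 34597 and 35569.8 CPM with the anti-Act1 label, led by Lyz2. Of these markers 2 were higher and 4 lower with the anti-Act1 label (3 and 3 by DESeq2), or 16.7% and 33.3%, where 10.9% and 9.76% of all 12494 tested genes were higher and lower. Itgam, for the integrin chain CD11b (log2 fold change −0.31), and Mrc1, the mannose receptor (−0.63, edgeR adjusted p = 5.57e-14), were among the lower ones. Neutrophils carry the same oxidase, so their 13 markers were listed as well. They summed to 666 and 677 CPM against 648 and 630.5 CPM, and almost all of this came from Mmp8, at 519 and 533 against 541 and 525 CPM, and from Csf3r, the G-CSF receptor gene, at 139 and 136 against 98.8 and 98.2 CPM. Of 10 neutrophil markers tested, 1 was higher and 5 were lower with the anti-Act1 label (1 and 3 by DESeq2), or 10% and 50% beside the same 10.9% and 9.76%, Csf3r among the lower ones (−0.48), and their part in the results was not tested. Defining neutrophil genes were near 0, with Ly6g at 0.0774 CPM at most and Mpo at 0.171 CPM at most. The 10 epithelial markers summed to under 1 CPM in each library, and Krt8, Krt18, Krt20, Cldn3 and Cldn4 had 0 counts throughout. Of the remaining types, the 8 dendritic cell markers summed to 5.41 to 6.69 CPM. The 5 listed B cell markers gave 2.91 to 4.03 CPM and the 8 fibroblast markers 1.76 to 2.48 CPM. Mast cell and erythroid markers reached at most 1.13 and 0.81 CPM. Only 6 dendritic cell, 2 B cell, 2 fibroblast, 1 mast cell and 2 erythroid markers had enough counts for the edgeR test. From these lists edgeR and DESeq2 called 0 genes, which says little at such counts. By the unadjusted edgeR p, 1 gene (Pdgfrb, of the fibroblast list) was under 0.05. The 7 T cell markers summed to 26.3 to 32.1 CPM, nearly all of it Cd4, which was higher with the anti-Act1 label (log2 fold change 0.21, edgeR adjusted p = 0.0358) but was not called by DESeq2.

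Across the libraries all 6 subunit genes were abundant, with 14081 to 98527 counts each, so that counting error in the shallowest library was between 0.379% and 0.843%. Levels of different genes are compared here as FPKM, the deposited counts corrected for gene length and library total. Cyba was the most abundant subunit, 63rd of 21874 genes by mean FPKM, at 741 and 675 FPKM with the WT label and 766 and 789.6 FPKM with the anti-Act1 label. Cybb came next, at 256 and 275 against 267 and 264 FPKM. In the WT libraries Ncf4 (168 and 154 FPKM), Ncf1 (156 and 157 FPKM) and Rac1 (159.9 and 150.2 FPKM) followed with overlapping ranges, so that their order there was within the spread. In the anti-Act1 libraries the same 3 genes stood apart, with Ncf4 at 195 and 194 FPKM, Ncf1 at 152 and 149.6 FPKM and Rac1 at 131 and 128 FPKM. Rac2 was lowest in both groups, at 80.4 and 80.7 against 82.4 and 85.3 FPKM.

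**Figure D1:**
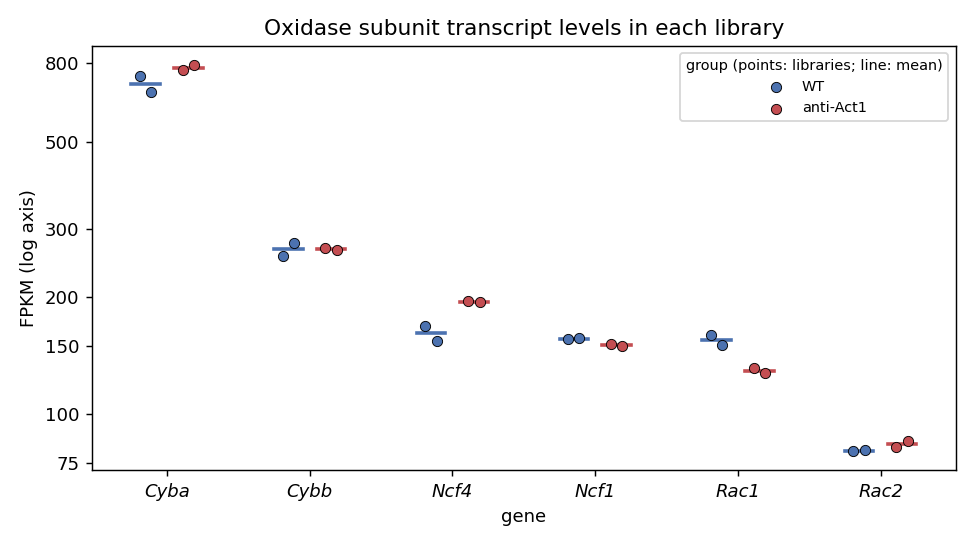
Transcript level of the 6 oxidase subunit genes in each library, as deposited FPKM on a log axis, with a point per library and a line at the group mean. Cyba sits at 675 FPKM or more in every library and Rac2 below 86 FPKM; Ncf4, Ncf1 and Rac1 lie together in the WT libraries and apart in the anti-Act1 libraries.

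Between the groups, Ncf4 and Cyba were higher and Rac1 was lower with the anti-Act1 label, while Cybb, Ncf1 and Rac2 did not pass the threshold, an edgeR adjusted p under 0.05 over the 12494 genes tested. Thus 3 of 6 subunits were called, against 20.7% of all tested genes. The 3 were 2 called higher and 1 called lower, where 10.9% of all tested genes were higher and 9.76% lower. Over the 6 subunits the log2 fold change had a median of 0.053, beside −0.0046 over all tested genes. The 3 called differences were small. Of all tested genes, 21.0% had a change at least as large as that of Ncf4, 27.4% one at least as large as that of Rac1 and 40.2% one at least as large as that of Cyba. The CPM ranges of the groups did not overlap for 5 of the 6 subunits, but this was also so for 57.1% of all tested genes. An exact permutation test of a gene by itself in 2 against 2 libraries cannot go below p = 0.333, so the p-values given come from the model across genes.

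The membrane pair came first. Cybb, on chromosome X (9435252 to 9487771, minus strand, GRCm38), was at 1211 and 1298 CPM with the WT label and at 1276 and 1276 CPM with the anti-Act1 label. The WT values lay on either side of the anti-Act1 values, and the log2 fold change came to 0.024 (SE 0.05, 95% interval −0.08 to 0.12, edgeR adjusted p = 0.797). Its sign was not fixed, with −0.026 when WT replicate 1 was left out and −0.0016 with scaling to library totals. Cybb is the only subunit on X. Of 366 tested genes on X, 7.65% were called higher and 13.1% lower, against 11.2% and 9.74% of 11569 autosomal genes, and 3 of 4 X-linked genes known to escape X inactivation were higher with the anti-Act1 label (Kdm6a, log2 fold change 0.52, Eif2s3x, 0.60, and Kdm5c, 0.35), while Ddx3x had −0.10.

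Cyba, on chromosome 8 (122424776 to 122432930, minus strand), was at 528 and 479 CPM with the WT label and at 551 and 575 CPM with the anti-Act1 label. Both anti-Act1 values were above both WT values, but by less than the gap between the WT libraries. The log2 fold change was 0.16 (SE 0.052, 95% interval 0.06 to 0.27, edgeR adjusted p = 0.021), a 1.12-fold difference. The call did not hold without WT replicate 2 (log2 fold change 0.093, edgeR adjusted p = 0.316), without anti-Act1 replicate 2 (0.13, edgeR adjusted p = 0.232) or with scaling to library totals (0.14, edgeR adjusted p = 0.0674).

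The cytosolic subunits went separate ways. Ncf4, on chromosome 15 (78244801 to 78262580, plus strand), encodes p40phox, which binds the phagosome lipid phosphatidylinositol 3-phosphate and sustains oxidase activity there. Its level was 218 and 199 CPM with the WT label and 256 and 258 CPM with the anti-Act1 label. The groups were well separated, and the log2 fold change was 0.30 (SE 0.052, 95% interval 0.19 to 0.40, edgeR adjusted p = 1.67e-05), a 1.23-fold rise. It kept its call under all 15 alternatives, where leaving out WT replicate 2 gave 0.23 and leaving out WT replicate 1 gave 0.36.

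Ncf1, on chromosome 5 (134220053 to 134229625, minus strand), encodes p47phox, the organiser whose phosphorylation starts assembly. It was the steadiest subunit, at 425 and 426 CPM with the WT label and 417 and 417 CPM with the anti-Act1 label. The groups did not overlap, yet the log2 fold change was −0.03 (SE 0.05, 95% interval −0.13 to 0.07, edgeR adjusted p = 0.742). Ncf1 shares 11.1% of its annotated exon bases with Gtf2ird2 on the other strand, a gene with at most 864 counts in a library, against at least 22750 counts for Ncf1.

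Of the GTPases, Rac1 (chromosome 5, 143503634 to 143528036, minus strand), the widely expressed member that also drives membrane ruffling, was at 375 and 351 CPM with the WT label and at 310.5 and 306 CPM with the anti-Act1 label. Both anti-Act1 values were below both WT values, and the log2 fold change was −0.23 (SE 0.051, 95% interval −0.34 to −0.13, edgeR adjusted p = 0.00046), a 1.18-fold fall. The call was kept under all 15 alternatives, and leaving out WT replicate 2 gave −0.28 and WT replicate 1 −0.19. Rac1 overlaps Daglb, a diacylglycerol lipase gene on the other strand, over 2309 of its 4496 annotated exon bases (51.4%, GENCODE M21). Daglb fell too, from 141 and 140.1 CPM to 118 and 120.4 CPM (−0.24 on the log2 scale, SE 0.052, edgeR adjusted p = 0.000478). The library kit named in the labels does not keep the strand, and without strand the reads of these genes cannot be told apart in the shared exons. The part of Daglb in the fall of Rac1 was not tested.

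Rac2 (chromosome 15, 78559167 to 78572783, minus strand), the GTPase of blood cells, overlapped no annotated gene. It was at 243 and 242 CPM with the WT label and at 251 and 263 CPM with the anti-Act1 label. Both anti-Act1 values were above both WT values, but the log2 fold change of 0.083 did not pass the threshold (SE 0.051, 95% interval −0.02 to 0.19, edgeR adjusted p = 0.278). The third family member, Rac3, was scarce at 2.46 to 4.01 CPM (log2 fold change 0.39, edgeR adjusted p = 0.126).

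**Figure D2:**
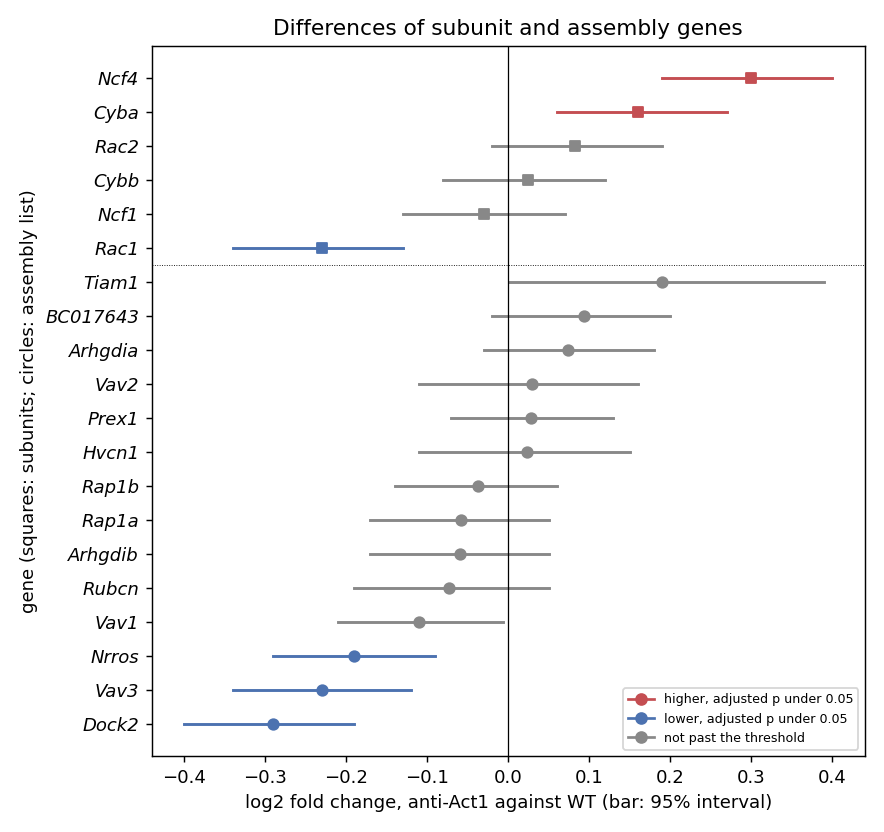
Log2 fold change of the 6 subunit genes (squares) and of 14 genes of the assembly list (circles), libraries labelled anti-Act1 against those labelled WT, with bars for the 95% interval of the edgeR model. Ncf4 and Cyba lie above 0 and Rac1 below it past the threshold, and among the assembly genes Dock2, Vav3 and Nrros lie below 0.

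Ratios between subunits within a library do not depend on how libraries are scaled. The ratio of Rac2 to Rac1, in FPKM, was 0.503 and 0.537 with the WT label and 0.628 and 0.667 with the anti-Act1 label. These groups did not overlap, and the overlap of Rac1 with Daglb bears on this ratio too. The ratio of Cybb to Cyba was 0.345 and 0.408 against 0.348 and 0.334, with overlapping groups. A further ratio, added after the values were seen, set p40phox against p47phox. Ncf4 to Ncf1 was 1.08 and 0.982 against 1.29 and 1.30, so that these groups did not overlap. The exact permutation test of any such ratio is bounded by the same p = 0.333.

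**Figure D3:**
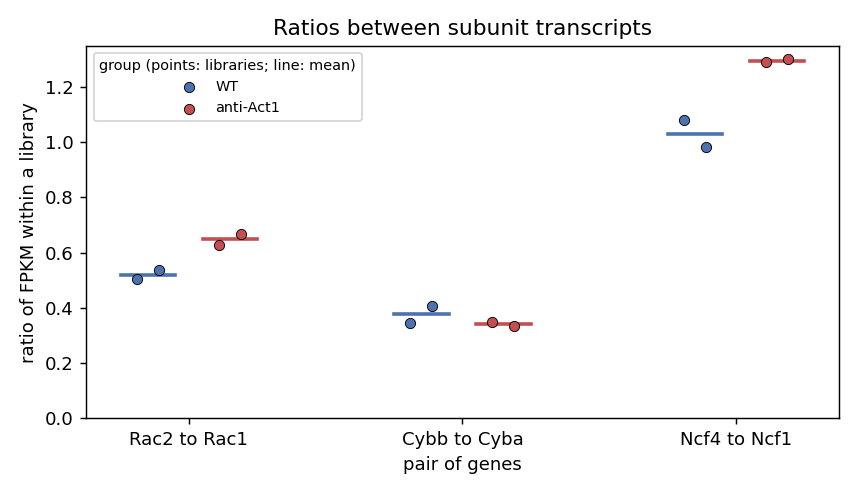
Ratio of the FPKM of a pair of subunit genes within each library, with a point per library and a line at the group mean. Rac2 to Rac1 and Ncf4 to Ncf1 are higher in both anti-Act1 libraries than in both WT libraries, and Cybb to Cyba overlaps.

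Upstream sequence was available here for Cybb, Cyba and Ncf1, and the 250 bases before the RefSeq start site of each are shown (GRCm38.p6, 5′ to 3′ on the strand of the gene) because interferon and STAT signals are known to raise oxidase genes in macrophages. Capitals mark matches, on either strand, to the interferon response letters, which are GAAA, 2 bases of any kind and GAAA, and to the STAT letters TTCNNNGAA.
Cybb, chrX:9469325-9469574, minus strand: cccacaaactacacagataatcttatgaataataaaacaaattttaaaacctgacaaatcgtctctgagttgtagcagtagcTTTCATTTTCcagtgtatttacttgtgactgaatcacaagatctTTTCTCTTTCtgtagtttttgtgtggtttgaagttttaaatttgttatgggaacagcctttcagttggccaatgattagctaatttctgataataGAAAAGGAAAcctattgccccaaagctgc
Ncf1, chr5:134229626-134229875, minus strand: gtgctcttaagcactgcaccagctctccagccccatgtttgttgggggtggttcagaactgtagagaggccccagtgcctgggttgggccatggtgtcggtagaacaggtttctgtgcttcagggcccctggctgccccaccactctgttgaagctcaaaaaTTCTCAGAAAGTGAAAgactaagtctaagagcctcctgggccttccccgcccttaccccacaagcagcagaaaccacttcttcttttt
Cyba, chr8:122432941-122433190, minus strand: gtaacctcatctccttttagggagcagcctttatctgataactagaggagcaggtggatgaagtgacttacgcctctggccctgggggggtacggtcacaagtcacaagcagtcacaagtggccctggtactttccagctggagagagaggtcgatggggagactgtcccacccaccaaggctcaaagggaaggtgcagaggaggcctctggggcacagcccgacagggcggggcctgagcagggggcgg

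The interferon response letters stood 3 times in the Cybb stretch, beginning 168, 124 and 29 bases before the start, and at 82 bases before the start of Ncf1, where they overlap a match to the STAT letters at 88 bases. Over windows that add 50 bases after the start, 3.44% of 32851 RefSeq promoters held the interferon response letters, 8.3% the STAT letters and 28.3% the PU.1 box GAGGAA, sought on both strands. The PU.1 box was found in the Cybb window only, within the bases after the start, which are not shown. The Cyba window held none of the 3 motifs. Beside these letters, Cybb and Ncf1 differed by a log2 fold change of 0.024 and −0.03, neither past the threshold, and Cyba by 0.16. The Cybb stretch lies within the span given for the gene from GENCODE M21 (9435252 to 9487771). It is thus upstream of the RefSeq start but not of that whole span. A match is a description of the letters and not a bound site.

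Around the oxidase, genes were grouped by role. The assembly list holds the chaperone gene BC017643 (Eros, needed for stable gp91phox), Rap1 GTPases, Rac exchange factors, Rac inhibitors and others, 15 genes tested in all. Here 0 were called higher and 3 lower, beside 10.9% and 9.76% of all tested genes. The higher count was 0 by DESeq2 as well, and 1 gene (Tiam1) was higher by an unadjusted edgeR p under 0.05. Dock2, a Rac exchange factor of leukocytes, fell from 198 and 209 CPM to 159.7 and 172 CPM (log2 fold change −0.29, edgeR adjusted p = 2.74e-05). Vav3, another exchange factor, fell from 111 and 115 CPM to 98.0 and 95.1 CPM (−0.23, edgeR adjusted p = 0.00123). Nrros, whose product promotes degradation of gp91phox, fell from 319.7 and 307 CPM to 272 and 278 CPM (−0.19, edgeR adjusted p = 0.00486). The Vav3 call did not hold without anti-Act1 replicate 2 (edgeR adjusted p = 0.0552), nor that of Nrros without anti-Act1 replicate 1 (edgeR adjusted p = 0.113). BC017643 had 0.094 (edgeR adjusted p = 0.242), and Arhgdia, the inhibitor that holds Rac in the cytosol and the most abundant gene of the list, had 0.074 (edgeR adjusted p = 0.336). The median of the list was −0.058.

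Kinases and lipid enzymes known to act on the cytosolic subunits gave 2 genes higher and 4 lower of 17 tested, with a median of −0.059. These were 11.8% and 23.5% of the list, beside 10.9% and 9.76% of all tested genes, so that the higher share was near the background. Prkcb, a protein kinase C that phosphorylates p47phox, fell from 102 and 109 CPM to 77.1 and 78.3 CPM (−0.44 on the log2 scale, edgeR adjusted p = 1.55e-08) and kept its call under all 15 alternatives. Prkcd, another isoform that acts on p47phox, was at 399.8 and 394 against 398 and 411 CPM (0.026, edgeR adjusted p = 0.776). Btk (−0.28), the X-linked tyrosine kinase, fell. Irak4 (−0.21, edgeR adjusted p = 0.00994) also fell but lost its call without anti-Act1 replicate 1 (edgeR adjusted p = 0.0523) or replicate 2 (0.153). Pla2g4a, the phospholipase that frees arachidonic acid, was higher (0.23, edgeR adjusted p = 0.012), a call lost without anti-Act1 replicate 1 (0.16, edgeR adjusted p = 0.266) or WT replicate 1 (0.19, edgeR adjusted p = 0.072). Syk, the most abundant gene of the list, had −0.029.

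Genes of the other NADPH oxidases were close to absent. Of 9 homologues and partners only Noxo1 had enough counts to be tested, at 6.33 and 5.44 against 6.41 and 6.54 CPM (log2 fold change 0.14, edgeR adjusted p = 0.523). Nox4, Noxa1 and Duoxa2 had 0 counts in every library, where a count of 0 allows up to 3 counts, or 0.0395 to 0.0549 CPM, for counting error alone. Nox1 was at 0.0972 CPM at most.

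The oxidase consumes NADPH, which the pentose phosphate pathway supplies. Of 11 genes for NADPH supply, 2 were higher, 1 was lower and 8 did not pass the threshold, with a median of 0.11. The shares of 18.2% higher and 9.09% lower, which rest on 3 genes, stood beside 10.9% and 9.76% of all tested genes, so that the lower share was near the background. G6pdx, the first enzyme of the pathway and X-linked, fell from 105 and 98.3 CPM to 84.8 and 90.7 CPM (log2 fold change −0.21, edgeR adjusted p = 0.00408). That call was lost without anti-Act1 replicate 1 (−0.16) and by limma on log2(FPKM + 1) without a filter (−0.23, limma adjusted p = 0.063). The next enzyme, Pgls (0.20), and the NAD kinase gene Nadk (0.20) were higher. Pgls lost its call without anti-Act1 replicate 1 (0.17) or WT replicate 2 (0.16), and Nadk without anti-Act1 replicate 2 (0.17). In the limma fit without a filter, Pgls (0.17, limma adjusted p = 0.115) and Nadk (0.17, limma adjusted p = 0.0518) were not called either. Taldo1, the most abundant, had 0.048.

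Superoxide is turned into hydrogen peroxide by superoxide dismutases and removed by peroxidases. Of 9 such genes tested, 7 were higher with the anti-Act1 label and 0 lower (77.8% higher, beside 10.9% of all tested genes). DESeq2 called 6 higher and 0 lower, and 0 were lower by the unadjusted p of either tool. The list had a median log2 fold change of 0.22. Sod2, the mitochondrial dismutase, rose from 105 and 104 CPM to 194 and 201 CPM (0.91, edgeR adjusted p = 4.05e-19). Both values with the anti-Act1 label were far above both WT values. Prdx6, a peroxiredoxin that also binds the oxidase, rose from 119 and 124 CPM to 158 and 163 CPM (0.40, edgeR adjusted p = 3.64e-08). Prdx5 (0.35), Gpx4 (0.24), Prdx1 (0.22), Sod1 (0.17, edgeR adjusted p = 0.0244) and Prdx2 (0.15, edgeR adjusted p = 0.0448) were the others called. Sod1 was at 143 and 128 against 146 and 158 CPM, and Prdx2 at 154 and 140 against 162 and 162 CPM. In both genes the gap between the groups was less than that between the WT libraries. By limma on log2(FPKM + 1) without a filter, Prdx5 (0.33, limma adjusted p = 0.0612) and Gpx4 (0.21, limma adjusted p = 0.0896) were not called. Catalase (Cat, 0.059) and Gpx1 (0.11), the most abundant of the list, did not pass the threshold, though Gpx1 did without WT replicate 1 (0.16, edgeR adjusted p = 0.0241). Sod2 is also a gene that NF-κB induces, and its rise was known when the list was written.

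Of 13 tested transcription factors known for oxidase genes, 1 was higher and 4 lower (7.69% and 30.8%, beside 10.9% and 9.76% of all tested genes), with a median of −0.042. DESeq2 called 1 higher and 2 lower, Bcl6 and Cebpa. Spi1 (PU.1), the myeloid factor that Cybb, Ncf1 and Ncf4 need, was at 355 and 354 against 349.5 and 356 CPM, with overlapping groups and a difference of −0.009 on the log2 scale (edgeR adjusted p = 0.931). Irf8, its partner at myeloid promoters, had −0.042 (edgeR adjusted p = 0.634). Cebpa (−0.31), Bcl6 (−0.36), Cebpd (−0.30) and Cebpb (−0.89) fell. Cebpb was uneven among the libraries labelled WT, at 351 and 212 CPM against 170.4 and 133 CPM, and its difference moved to −0.48 when WT replicate 1 was left out and to −1.21 when WT replicate 2 was. DESeq2 did not call Cebpb (adjusted p = 0.118), nor Cebpd.

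**Figure D4:**
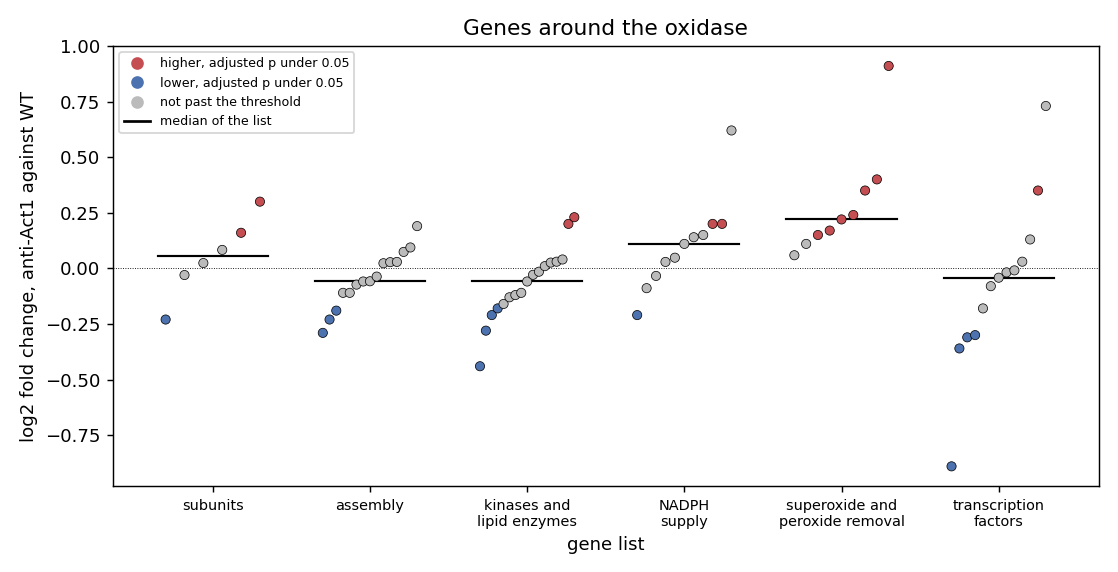
Log2 fold change of every tested gene of 6 gene lists, libraries labelled anti-Act1 against those labelled WT, with a line at the median of each list and colour for genes past the edgeR threshold. The list of superoxide and peroxide removal has its median at 0.22 and 0 genes called lower, and the subunit list has 2 genes called higher and 1 lower.

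Over the 4 libraries, the genes most like each subunit were sought by the distance between log2 CPM profiles centred on their means, among 8405 other genes with a mean of at least 10 CPM. Nearest to Ncf4 were Rnf126 (distance 0.0043) and Tspo (0.017), with log2 fold changes of 0.30 and 0.31. Nearest to Rac1 were Sash3 (0.018) and Zfp704 (0.021), and nearest to Cyba were Rpsa (0.01) and Exosc3 (0.014). Cybb was closest to Ptcd1 and Atn1, Ncf1 to Tecr, and Rac2 to Spsb3 and Stat6. Such likeness is common with 4 libraries, since 181 genes lay within a distance of 0.1 of Ncf4, 356 of Rac1, 586 of Cyba and 2432 of Ncf1.

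**Figure D5:**
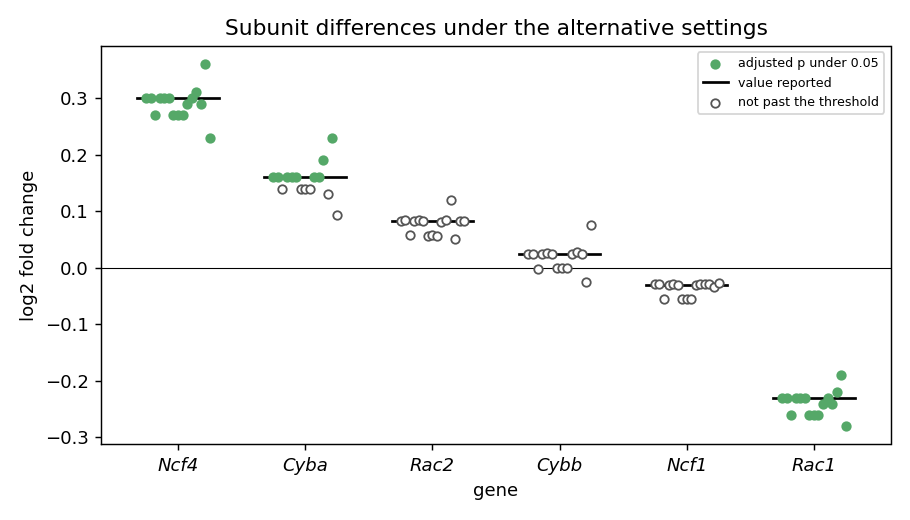
Log2 fold change of each subunit gene under every alternative setting, filled where the adjusted p is under 0.05, with a line at the value reported. Ncf4 and Rac1 are filled throughout, Cyba in part, and Rac2, Cybb and Ncf1 nowhere; Cybb, which has no value without X and Y genes, lies on both sides of 0.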

How the data were processed

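RNA sequencing of 4 libraries, 2 for each label, was analysed; the labels and the paper speak of replicates, and the p-values measure the spread between these libraries. The authors dropped low-quality and adapter reads and those with unknown bases, aligned read pairs with TopHat and deposited raw read counts per gene without normalization. The authors also deposited FPKM, which equalled these counts divided by a fixed gene length and by the column total in 11407 genes compared, within a relative spread of 1e-07. The submitters' processing notes list Bowtie 0.12.2, HTSeq 0.6.1, mm8 and mm10 without roles. How counting treated strand is not given in the sources used here.

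The members and gene lists were chosen with earlier results of these data known. Counts were tested with edgeR 4.0.16 (R 4.3.3) by its quasi-likelihood F test (two-sided) after TMM scaling and filterByExpr, with condition as the sole term and Benjamini-Hochberg adjustment over 12494 genes. All 6 members passed the filter. Standard errors and intervals come from this model. The alternatives comprised DESeq2 1.42.0, its size factors within edgeR, library totals, other count filters, counts thinned to 55435063, the replicate block, exclusion of X and Y genes, limma 3.58.1 on log2(FPKM + 1) or log2(FPKM + 0.1), and each library left out. On simulated counts with 100 genes changed by 1 and 100 by 2 on the log2 scale, edgeR recovered all of them. It called 11 unchanged genes of 12465 tested. The simulation gave every gene the same spread and changed only well-counted genes. It held no change as small as those of the subunits, so it does not bear on calls of that size. Positions come from GENCODE M21 and promoters from RefSeq (GRCm38.p6), with 3 of 6 members matched. Named genes are the members, Traf3ip2, Y- and X-linked genes, the 4 largest called changes (mean of at least 1 CPM) and the most abundant gene of each list, the 2 nearest genes in pattern, and others picked for their role. Some genes that this rule gives are not reported here, though list counts and medians include them.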

Additional observations from a re-analysis of the deposited data

How the results depend on the processing

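Ncf4 and Rac1 kept direction and call under all 15 alternatives, with adjusted p-values up to 0.0494 and 0.0413, and Ncf1 and Rac2 kept direction without a call. Cyba kept its direction but was 0.14 and not called with library totals (edgeR adjusted p = 0.0674). It was also 0.14 and not called by limma on log2(FPKM + 1) or log2(FPKM + 0.1) (adjusted p = 0.153) and with log2(FPKM + 1) without a filter (adjusted p = 0.31), so that 1 member was called higher there. With a replicate left out, Cyba ranged from 0.093 to 0.23 and 1 to 2 members were called higher. Cybb, not called in any setting, turned to −0.0016 with library totals and to −0.00066 in all 3 limma fits, and ranged from −0.026 to 0.075 with a replicate left out. Spi1 ranged from −0.02 to 0.0065 with a replicate left out. The 2586 genes called became 1091 with limma without a filter and 1671 to 2543 with a replicate left out. Of the 22 genes taken as the largest called changes of the pathway lists, 9 kept their call in all alternatives and 0 turned direction. The Y-linked genes, the genes known to escape X inactivation and the nearest genes were not run through all alternatives. Nor were other genes named for their role, Prdx1, Sod1, Prdx2, Cebpd, Itgam, Mrc1, Csf3r, Cd4 and Daglb among them. The replicate numbers were not shown to pair the libraries: deviations of same-numbered libraries had a correlation of −0.03. The fit with the replicate block gave 2406 genes and changed the call of no member. Where a fit leaves a lone library in a group, it is assumed to vary like the others. The cause of these changes was not tested.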

Other observations

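Reference genes used to scale RT-qPCR were listed as well. Of 12 such genes, 2 were higher and 4 lower with the anti-Act1 label (1 and 3 by DESeq2), which is 16.7% and 33.3%, beside 10.9% and 9.76% of all tested genes. Hprt and Tbp had log2 fold changes of −0.005 and −0.0043, while Pgk1 had 0.28 and Actb −0.24 (edgeR adjusted p = 0.000535). Gapdh, which has many near-identical copies that could take its reads, had 26.2 and 35.3 CPM against 15.8 and 20.5 CPM (−0.77). Among genes often read as neutrophil signs, S100a8 was higher (0.66) and S100a9 lower (−1.42) with the anti-Act1 label, at no more than 6.09 and 1.83 CPM. Ratios of a subunit to Actb or Gapdh would thus differ from the library-scaled values given for the oxidase.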
